A study of Homo sapiens with 18 samples.

Results

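The genes described here are 40 genes of mitosis and the G2/M transition, a list of symbols whose rows were found in the count table by their Ensembl identifiers. All 40 symbols were found among the 63677 genes of the table, and all 40 passed the filter on low counts that left 16678 genes for testing. RNA came from THP-1, a monocytic line from a human acute leukaemia that divides in suspension, in 18 libraries. Cells received an siRNA against TRAFD1 at 25 nM (KD), a non-targeting siRNA at 25 nM (SCR), or no siRNA (WT), and 72 h later LPS, the lipopolysaccharide of the bacterial cell wall, at 10 ng/ml or medium alone, for 4 h by the labels. There were 6 groups of 3 libraries each, and within a condition replicates 1 to 3 received medium and replicates 4 to 6 received LPS. The labels differ on WT, which the design text calls untreated and the sample protocol describes as exposed to the transfection mix, so the reagent and the siRNA cannot be told apart in a difference between SCR and WT. A single siRNA and a single cell line were used, and nothing in the labels says that the 3 libraries of a group came from independent cultures, so p-values measure the spread between these libraries.

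Cells enter mitosis when cyclin B bound to CDK1 is switched on by the CDC25 phosphatases and held active by PLK1 and the Aurora kinases. The spindle assembly checkpoint then blocks the anaphase promoting complex until every kinetochore is attached, and the central spindle and contractile ring finally divide the cell. The mRNAs of most of these proteins are made in G2 and mitosis and are low in G1, so their summed level is widely used as a sign of how much of a culture is dividing. Many of their promoters carry a CHR element and CCAAT boxes, which are bound by the MuvB complex with its MYB or repressor partners and by NF-Y. In bulk RNA, fewer cells in G2 and mitosis and less RNA of these genes per cell cannot be told apart.

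Promoter windows from 250 bases before to 50 bases after the start were taken from a table of RefSeq promoters (GRCh38.p14) that held 32 of the 40 genes, and the first listed start of each gene was used. AURKA, TPX2, TTK, FOXM1, BUB3, BIRC5, HMGB2 and UBE2C were not among them. The letters TTTGAA of the CHR element were found on either strand in 62.5% of these 32 windows against 15.4% of 27305 windows of the same length for all genes. CCAAT was present, on either strand, in 78.1% against 35.7%, and both words together in 56.2% against 6.08%. The 12 of these genes that were called lower with LPS in at least 1 condition held TTTGAA in 6 windows, and the other 20 in 14. A match is a description of the sequence and says nothing about what bound there. The windows of PLK1, CCNB2 and CKS2 are shown as examples with a TTTGAA word at position -29 from the start, written on the opposite strand in CKS2. MKI67, which was not called lower with LPS in any condition, also held TTTGAA at -29 and is not shown. The 3 genes shown lie on the plus strand (chr16:23678639-23678938, chr15:59104896-59105195 and chr9:89310945-89311244). Capitals mark TTTGAA or its reverse complement TTCAAA and CCAAT or its reverse complement ATTGG.
PLK1: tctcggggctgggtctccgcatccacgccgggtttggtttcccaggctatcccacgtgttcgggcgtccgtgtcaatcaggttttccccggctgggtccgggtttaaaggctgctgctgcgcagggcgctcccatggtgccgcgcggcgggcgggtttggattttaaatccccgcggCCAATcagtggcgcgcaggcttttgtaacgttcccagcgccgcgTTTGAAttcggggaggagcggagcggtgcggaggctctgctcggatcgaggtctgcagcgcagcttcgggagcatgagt
CCNB2: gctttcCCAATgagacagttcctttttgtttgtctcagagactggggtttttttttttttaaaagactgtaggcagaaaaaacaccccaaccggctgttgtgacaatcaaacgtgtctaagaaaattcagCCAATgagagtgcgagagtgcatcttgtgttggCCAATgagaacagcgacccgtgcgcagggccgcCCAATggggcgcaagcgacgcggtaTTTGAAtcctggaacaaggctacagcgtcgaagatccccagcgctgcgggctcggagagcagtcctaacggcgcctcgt
CKS2: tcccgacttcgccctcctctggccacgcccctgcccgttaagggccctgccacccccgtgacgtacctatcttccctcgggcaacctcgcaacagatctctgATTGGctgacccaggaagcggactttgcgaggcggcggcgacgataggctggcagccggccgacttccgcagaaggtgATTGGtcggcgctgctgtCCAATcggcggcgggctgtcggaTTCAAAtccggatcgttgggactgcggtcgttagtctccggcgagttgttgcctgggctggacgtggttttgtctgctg

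Total counts ran from 8206023 to 22344279 per library, and the 40 genes together held 0.301% to 0.414% of them, 28484 to 90622 counts. A count of 0 would allow up to 3 counts, or 0.133 to 0.378 CPM (counts divided by the library total in units of 1e+06, after TMM scaling), for counting error only, and the lowest count of any of the 40 genes in any library was 51. All 9 monocytic markers were tested and summed to 459 to 645 CPM, with WT without LPS at 459 to 534, SCR at 540 to 608 and KD at 577 to 645, while T cell markers summed to at most 0.616 CPM, epithelial markers to 3.16 CPM and fibroblast markers to 2.94 CPM. The B cell markers summed to 30 to 35.4 CPM in WT without LPS and to 49.5 to 53.5 CPM in KD with LPS, with 3 of 5 tested. Mitochondrial genes held 3.19% to 3.37% of counts in WT without LPS and 3.82% to 4.45% with LPS. In SCR the shares were 3.28% to 3.47% and 3.72% to 5.2%, and in KD 3.87% to 4.86% and 4.28% to 5.14%. The part of these shifts in the results below was not tested. TRAFD1 stood at 20.5 ± 1.99 CPM for WT, 23.7 ± 3.38 for SCR and 8.67 ± 3.14 for KD without LPS (SD, n = 3), and KD was lower than SCR by edgeR (-1.45 ± 0.23, adjusted p = 0.0277). With LPS the difference between KD and SCR was -0.65 ± 0.22 (SE, adjusted p = 0.262) and did not pass. TNF, an LPS target, rose with LPS by 3.16 ± 0.16 (WT), 1.73 ± 0.15 (SCR) and 1.40 ± 0.15 (KD) on the log2 scale (SE).

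The genes differed widely in level. TOP2A, the topoisomerase that untangles sister chromatids, and CKS1B, a small subunit of cyclin-dependent kinase complexes, were the most abundant, with means of 629 and 491 CPM over the 18 libraries, and lay at the 98.6th and 98.1th percentile of all genes tested. CDC25C, a phosphatase that activates CDK1, and NEK2, a kinase of centrosome separation, were the least abundant, with means of 9.11 and 9.95 CPM, near the middle of all genes tested. One fragment stands for one transcript in this 3-prime method, so CPM needs no correction for length. Reads were counted only over a stretch at the end of each gene. Whether that stretch held the transcript end used in these cells was not tested, so the ranking between genes is approximate. NEK2 stood at 8.14, 10.5 and 10.5 CPM for WT, 7.6, 11.8 and 9.63 for SCR and 11.9, 12.2 and 14.4 for KD without LPS. It stood at 10, 6.94 and 6.76 CPM for WT, 10.5, 9.11 and 10.1 for SCR and 8.3, 10.2 and 10.6 for KD with LPS and passed in no comparison.

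The first question was how these genes behaved after LPS. Their summed level was 3684 to 4030 CPM in WT without LPS and 3052 to 3360 CPM with LPS. In KD it was 3453 to 3589 CPM without and 3108 to 3154 CPM with LPS. In SCR the ranges overlapped, at 3471 to 3717 CPM without and 3420 to 3592 CPM with LPS. The sum gives most weight to abundant genes such as TOP2A and CKS1B. The mean log2 CPM of the 40 genes was 5.63 to 5.74 without and 5.26 to 5.45 with LPS in WT. It was 5.57 to 5.73 and 5.5 to 5.56 in KD, which nearly met, and 5.63 to 5.75 and 5.52 to 5.65 in SCR. Within WT, 15 of the 40 genes were called lower with LPS and 0 higher (1 was higher at an unadjusted p under 0.05), while 7.26% of all genes were called lower, 7.01% higher and 14.3% in either direction. In SCR 7 were called lower, against 8.56% of all genes, and 1 was called higher, against 8.64%. In KD 7 were called lower, against 5.05% of all genes, and 0 higher, against 6.41% (2 at an unadjusted p under 0.05). The median log2 fold change of the 40 genes was -0.31 in WT, -0.16 in SCR and -0.17 in KD, beside medians of -0.03, -0.03 and 0.00 over all genes tested.

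**Figure D1:**
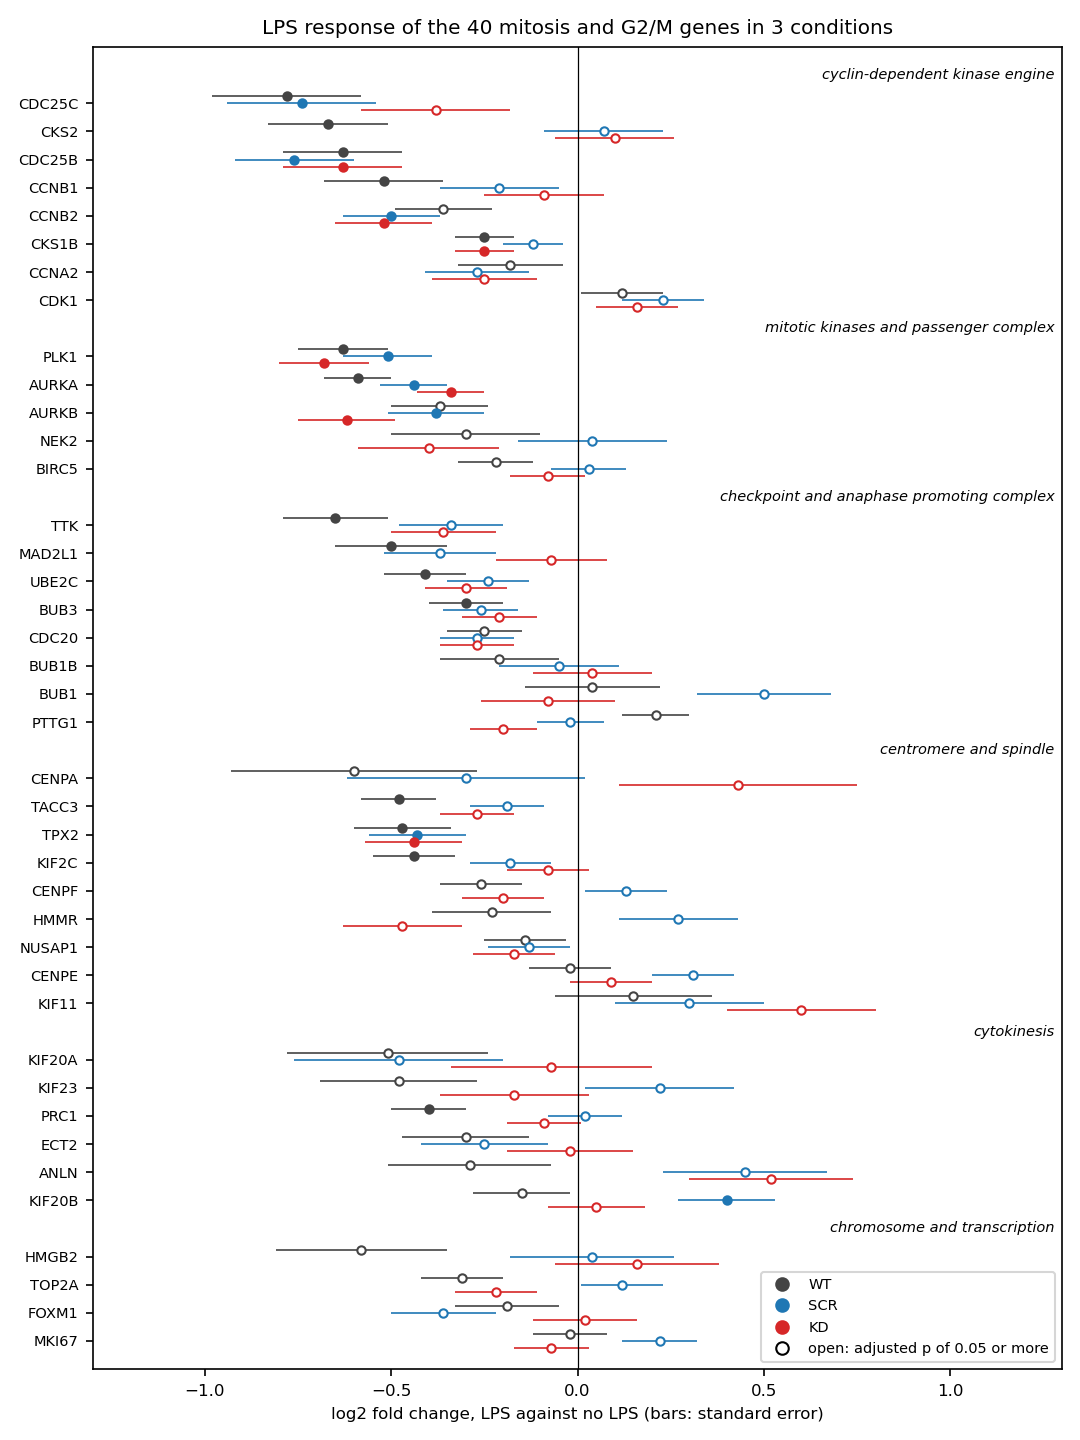
LPS responses of the 40 genes by role. The x axis gives the log2 fold change of LPS against no LPS with its standard error, in WT (grey), SCR (blue) and KD (red), and filled points passed an adjusted p of 0.05. In WT 36 of the 40 points lie left of 0, and PLK1, AURKA, CDC25B and TPX2 are filled in all 3 conditions.

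The 3 LPS comparisons share no libraries, but they come from a single fit with a shared estimate of the spread. AURKA, PLK1, CDC25B and TPX2 were called lower in all 3, which is 4 of 40 genes, against 2.38% of all genes tested. With the KD groups fitted alone, the KD calls of AURKA, CDC25B and TPX2 were lost and that of PLK1 held. In at least 1 condition 17 genes were called lower, against 13.4% of all genes, 1 was called higher and 22 were called in none. The log2 fold change was below 0 in all 3 conditions for 20 of the 40 genes and for 27.2% of all genes tested. It was above 0 in all 3 for 2, CDK1 and KIF11.

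Among the kinases that drive mitosis and the passenger complex, PLK1 and the Aurora kinases fell and NEK2 and BIRC5 did not pass. AURKA (ENSG00000087586, chromosome 20, 54944445 to 54967393), with coordinates here and below on GRCh37, which matures centrosomes and builds the spindle, stood at 148, 150 and 150 CPM for WT, 142, 130 and 143 for SCR and 114, 116 and 139 for KD without LPS. With LPS it stood at 99.5, 94 and 104 CPM for WT, 95, 104 and 105 for SCR and 99.8, 100 and 92.4 for KD, so that no LPS library reached the level of any unstimulated library of its own condition. The log2 fold change of AURKA (value ± SE, here and below) was -0.59 ± 0.09 (SE, adjusted p = 9.41e-05) in WT, -0.44 ± 0.09 (SE, adjusted p = 0.00186) in SCR and -0.34 ± 0.09 (SE, adjusted p = 0.0195) in KD. The calls in WT and SCR held when any one library was left out, and that in KD was lost without KD replicate 3, 5 or 6 (adjusted p up to 0.143), when the 2 KD groups were fitted alone and with no filter on low counts.

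PLK1 (ENSG00000166851, chromosome 16, 23688977 to 23701688), the polo-like kinase that acts from mitotic entry to cytokinesis and whose promoter is shown above, stood at 76.9, 87.3 and 79.1 CPM for WT, 67.4, 60.4 and 76.2 for SCR and 75.9, 81.4 and 90.3 for KD without LPS. All 9 LPS libraries were lower than every unstimulated library, at 51.4, 53.1 and 52.9 CPM for WT, 53.3, 40.2 and 50.1 for SCR and 58.7, 49.4 and 46.9 for KD. PLK1 gave a log2 fold change of -0.63 ± 0.12 (SE, adjusted p = 0.000927) in WT, -0.51 ± 0.12 (SE, adjusted p = 0.00556) in SCR and -0.68 ± 0.12 (SE, adjusted p = 0.00068) in KD, and all 3 calls held without any one library. AURKB (ENSG00000178999, chromosome 17, 8108051 to 8113918), the catalytic kinase of the chromosomal passenger complex, stood at 73.9, 67.5 and 81.2 CPM for WT, 76.5, 82.7 and 70.9 for SCR and 67.2, 67.9 and 75.9 for KD without LPS. With LPS the values were 57.9, 45.5 and 68.7 CPM for WT, 58.4, 53.9 and 63.8 for SCR and 42.1, 47.1 and 48.2 for KD, and 1 WT library with LPS overlapped the unstimulated ones. AURKB fell in SCR (-0.38 ± 0.13, adjusted p = 0.0409) and KD (-0.62 ± 0.13, adjusted p = 0.00268), and WT gave -0.37 ± 0.13 (SE, adjusted p = 0.0526). Its call in SCR was lost without SCR replicate 1, 2, 4 or 5 (adjusted p up to 0.15), with RLE factors (median-of-ratios scaling in place of TMM) and with a correction for GC content, whereas the call in KD held throughout. BIRC5 (survivin), another subunit of that complex, gave -0.22 ± 0.10, 0.03 ± 0.10 and -0.08 ± 0.10 in WT, SCR and KD (log2 fold change and SE) and did not pass.

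**Figure D2:**
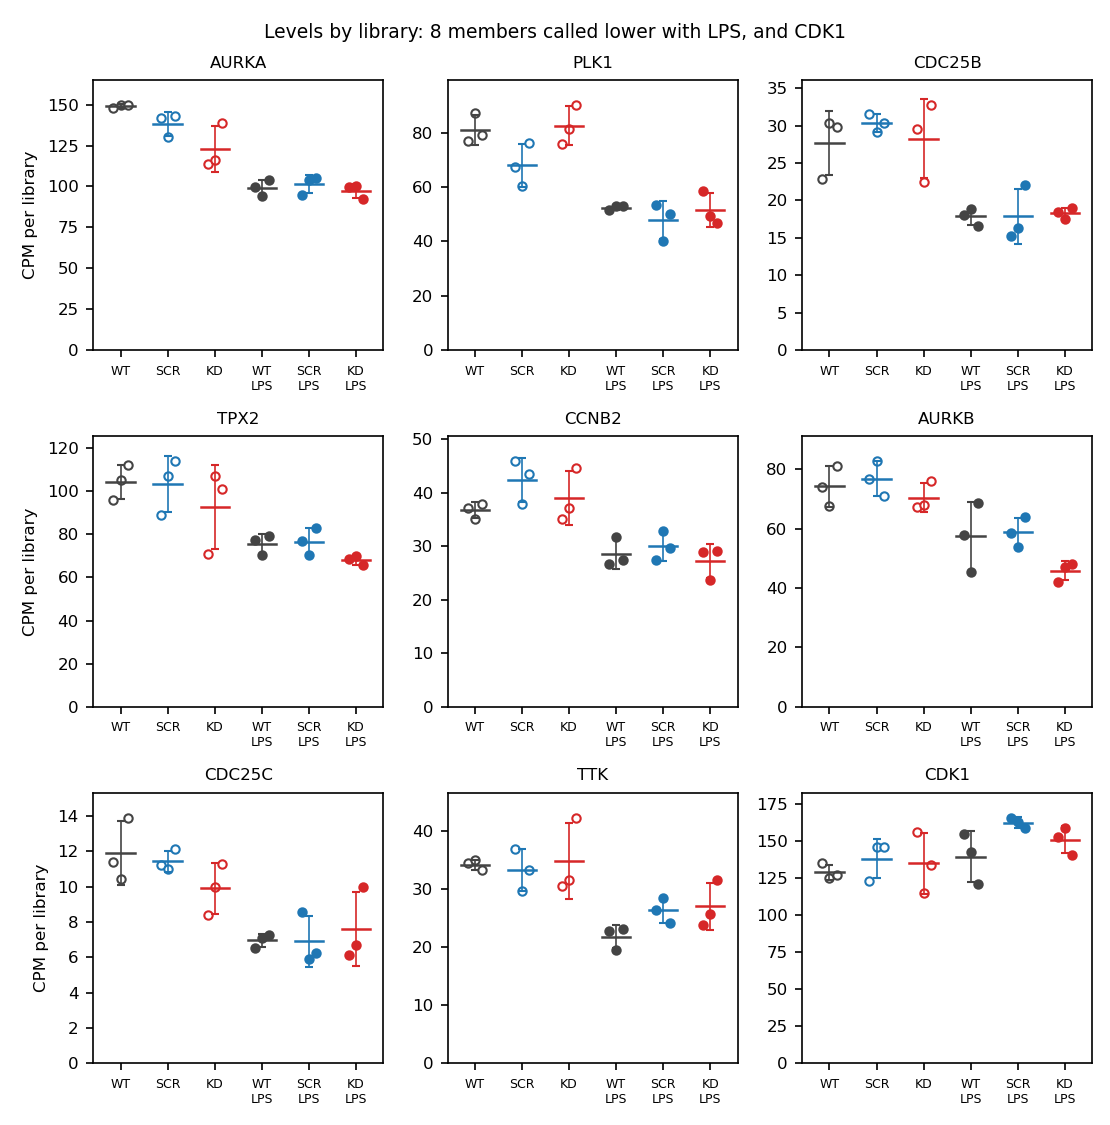
Levels by library of 8 genes called lower with LPS in at least 1 condition, and of CDK1. Each point is 1 library (open without LPS, filled with LPS), the y axis gives CPM from 0, and lines and bars give the mean and SD of 3 libraries. PLK1 with LPS lies between 40.2 and 58.7 CPM, below every unstimulated library, while CDK1 spans 115 to 166 CPM over all 18 libraries.

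Of the genes of the CDK1 engine, CDC25B was called lower in 3 conditions, CCNB2, CDC25C and CKS1B in 2, and CCNB1 and CKS2 in WT alone, while CDK1 and CCNA2 passed in none. CDC25B (ENSG00000101224, chromosome 20, 3767419 to 3786768), the phosphatase that starts CDK1 activation at the centrosome, stood at 22.8, 30.4 and 29.8 CPM for WT, 31.6, 29.2 and 30.3 for SCR and 29.5, 22.5 and 32.8 for KD without LPS. It stood at 18.1, 18.9 and 16.6 CPM for WT, 15.3, 16.3 and 22.1 for SCR and 18.4, 17.5 and 19 for KD with LPS, and the states did not overlap in any condition. CDC25B fell by this measure in each condition: -0.63 ± 0.16 (SE, adjusted p = 0.00946) in WT, -0.76 ± 0.16 (SE, adjusted p = 0.00208) in SCR and -0.63 ± 0.16 (SE, adjusted p = 0.0116) in KD. The KD call was lost without KD replicate 3 or 5 (adjusted p up to 0.079) and in the KD groups fitted alone.

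CDC25C (ENSG00000158402, chromosome 5, 137620958 to 137674044), its relative at mitotic entry, stood at 11.4, 10.4 and 13.9 CPM for WT, 11.2, 11 and 12.1 for SCR and 8.39, 10 and 11.3 for KD without LPS. With LPS it stood at 6.52, 7.1 and 7.25 CPM for WT, 8.57, 5.91 and 6.23 for SCR and 6.12, 6.72 and 9.98 for KD, where 1 KD library lay among the unstimulated ones. It fell in WT (-0.78 ± 0.20, adjusted p = 0.0113) and SCR (-0.74 ± 0.20, adjusted p = 0.0144), and KD gave -0.38 ± 0.20 (SE, adjusted p = 0.242). The WT call was lost without WT replicate 3 or 4 (adjusted p up to 0.0741), and the SCR call without SCR replicate 5 or 6 (adjusted p up to 0.0749).

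CCNB2 (ENSG00000157456, chromosome 15, 59397325 to 59417244), 1 of the 2 main B-type cyclins, stood at 37.2, 35.1 and 37.9 CPM for WT, 45.9, 37.8 and 43.4 for SCR and 35.1, 37.2 and 44.6 for KD without LPS. In LPS libraries, CCNB2 stood at 26.6, 31.8 and 27.4 CPM for WT, 27.5, 32.9 and 29.6 for SCR and 28.9, 23.6 and 29.1 for KD. No LPS library of CCNB2 reached its unstimulated group. It fell in SCR (-0.50 ± 0.13, adjusted p = 0.00898) and KD (-0.52 ± 0.13, adjusted p = 0.00989), and WT gave -0.36 ± 0.13 (SE, adjusted p = 0.0612). The SCR call was lost without SCR replicate 1 or 4 (adjusted p up to 0.0618), and the KD call without KD replicate 3 or 5 (adjusted p up to 0.0784) and in the KD groups fitted alone. CCNB1 (ENSG00000134057, chromosome 5, 68462962 to 68474072), the other, stood at 47.5, 43.4 and 46 CPM for WT, 49, 44.1 and 44.7 for SCR and 61.6, 34.7 and 51.6 for KD without LPS. With LPS it stood at 33.9, 35.4 and 26.4 CPM for WT, 45.5, 38 and 36.2 for SCR and 44.9, 51.6 and 42.8 for KD, and the states were apart in WT but overlapped in SCR and KD. Only the WT call passed (-0.52 ± 0.16, adjusted p = 0.0348), with -0.21 ± 0.16 in SCR and -0.09 ± 0.16 in KD (SE), and it was lost without WT replicate 1, 3, 4 or 6 (adjusted p up to 0.171).

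Of the 2 small CDK-binding subunits, CKS1B was called lower in WT and KD and CKS2 in WT. CKS1B (ENSG00000173207, chromosome 1, 154947129 to 154951727) stood at 542, 514 and 577 CPM for WT, 506, 530 and 530 for SCR and 497, 507 and 534 for KD without LPS. In LPS libraries, CKS1B stood at 502, 428 and 444 CPM for WT, 472, 475 and 496 for SCR and 449, 417 and 423 for KD. No LPS library of CKS1B reached the unstimulated libraries of its condition. The log2 fold change was small: -0.25 ± 0.08 (SE, adjusted p = 0.0313) in WT, -0.25 ± 0.08 (SE, adjusted p = 0.0342) in KD and -0.12 ± 0.08 (SE, adjusted p = 0.32) in SCR. The WT call was lost without WT replicate 1, 3, 5 or 6 (adjusted p up to 0.163), with RLE or upper-quartile factors and with GC correction, with no filter and in the WT groups fitted alone, and the KD call without KD replicate 2, 3, 5 or 6 (adjusted p up to 0.137), with no filter and in the KD groups fitted alone. CKS2 (ENSG00000123975, chromosome 9, 91926110 to 91931618) stood at 19.8, 21.2 and 17 CPM for WT, 14.6, 15.8 and 18.6 for SCR and 21.6, 15.8 and 20.1 for KD without LPS. With LPS it stood at 11.7, 13 and 11.7 CPM for WT, 18.3, 17.8 and 15.2 for SCR and 16.7, 23.1 and 21.9 for KD, so that the WT libraries with LPS were the lowest of all 18. CKS2 fell in WT (-0.67 ± 0.16, adjusted p = 0.00673), a call that held without any one library, and gave 0.07 ± 0.16 in SCR and 0.10 ± 0.16 in KD (SE). The difference between the LPS responses of SCR and WT was 0.74 ± 0.23 (SE, adjusted p = 0.307) and did not pass.

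CDK1, the kinase itself, stood at 135, 125 and 127 CPM for WT, 123, 146 and 146 for SCR and 156, 115 and 134 for KD without LPS. In LPS libraries, CDK1 stood at 155, 143 and 121 CPM for WT, 166, 163 and 159 for SCR and 153, 159 and 141 for KD, with log2 fold changes of 0.12 ± 0.11, 0.23 ± 0.11 and 0.16 ± 0.11 in WT, SCR and KD (SE). CCNA2, the A-type cyclin of S phase and G2, gave -0.18 ± 0.14, -0.27 ± 0.14 and -0.25 ± 0.14. Neither passed in any condition. The end of CCNA2 is overlapped on the opposite strand by EXOSC9, at a mean of 86.8 CPM against 45.7 CPM for CCNA2. The same holds for KIF20A, with CDC23 at 26.0 CPM against 11.2 CPM, and for FOXM1, with ITFG2 at 3.90 CPM against 29.6 CPM. Whether the counting used strand is not given in the sources used here, so the values of these 3 genes are uncertain.

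In the spindle checkpoint and the anaphase promoting complex, 4 of 8 genes were called lower in WT and 0 in SCR or KD. At an unadjusted p under 0.05, 5 of the 8 were lower in each of WT, SCR and KD, against 13.9%, 15.5% and 12.1% of all genes. At that threshold 1 was higher in WT, 1 in SCR and 0 in KD. The medians of the 8 genes were -0.28 in WT, -0.25 in SCR and -0.2 in KD. TTK (ENSG00000112742, chromosome 6, 80713604 to 80752244), the kinase that starts checkpoint signalling, stood at 34.5, 35 and 33.3 CPM for WT, 37, 29.7 and 33.3 for SCR and 30.6, 31.7 and 42.4 for KD without LPS. In LPS libraries, TTK stood at 22.9, 19.6 and 23.1 CPM for WT, 26.4, 28.6 and 24.2 for SCR and 23.9, 25.7 and 31.6 for KD. TTK was lower with LPS in every WT and SCR library, and in KD 1 library with LPS overlapped the unstimulated ones. TTK gave -0.65 ± 0.14 (SE, adjusted p = 0.00311) in WT, -0.34 ± 0.14 (SE, adjusted p = 0.106) in SCR and -0.36 ± 0.14 (SE, adjusted p = 0.101) in KD, and the WT call held without any one library.

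MAD2L1 (ENSG00000164109, chromosome 4, 120976778 to 120988013), the checkpoint protein that sequesters CDC20, stood at 30.1, 27.2 and 28.3 CPM for WT, 34.3, 32.2 and 38.1 for SCR and 35.4, 25.5 and 34.6 for KD without LPS. In LPS libraries, MAD2L1 stood at 19.9, 20.4 and 20.1 CPM for WT, 31.7, 25.6 and 24.1 for SCR and 24.8, 29.7 and 36.5 for KD. Its 3 WT libraries with LPS were the lowest of the 18, and in KD the states overlapped. The call in WT (-0.50 ± 0.15, adjusted p = 0.0296) was lost without WT replicate 1, 3, 4, 5 or 6 (adjusted p up to 0.0935), while SCR gave -0.37 ± 0.15 and KD -0.07 ± 0.15 (SE).

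UBE2C (ENSG00000175063, chromosome 20, 44441215 to 44445596), the ubiquitin-conjugating enzyme of the anaphase promoting complex, stood at 66.6, 83.7 and 70.6 CPM for WT, 69.4, 80.1 and 77.2 for SCR and 70.6, 66.6 and 67.1 for KD without LPS. In LPS libraries, UBE2C stood at 60.6, 53.1 and 52.7 CPM for WT, 71.2, 63.2 and 57.5 for SCR and 59.7, 52.7 and 53.2 for KD. The states did not overlap in WT or KD, and overlapped in SCR. UBE2C fell in WT (-0.41 ± 0.11, adjusted p = 0.0152), a call lost without WT replicate 2, 5 or 6 (adjusted p up to 0.0879), with -0.24 ± 0.11 in SCR and -0.30 ± 0.11 in KD (SE). Its pseudogene UBE2CP5 held 6.62 CPM beside the 65.4 CPM of UBE2C, so a share of reads could be split between them. BUB3 (ENSG00000154473, chromosome 10, 124913918 to 124929983), which docks checkpoint proteins at kinetochores, stood at 173, 158 and 184 CPM for WT, 183, 164 and 155 for SCR and 155, 147 and 147 for KD without LPS. In LPS libraries, BUB3 stood at 144, 138 and 135 CPM for WT, 162, 126 and 132 for SCR and 124, 131 and 134 for KD. BUB3 likewise overlapped between states in SCR and not in WT or KD. The WT call of BUB3 (-0.30 ± 0.10, adjusted p = 0.0428) was lost without WT replicate 1, 3, 4, 5 or 6 (adjusted p up to 0.171), with RLE or upper-quartile factors, with no filter and in the WT groups fitted alone, and SCR and KD gave -0.26 ± 0.10 and -0.21 ± 0.10 (SE). BUB1, BUB1B, CDC20 and PTTG1 passed in no condition: CDC20, the activator of the complex, gave -0.25 ± 0.10, -0.27 ± 0.10 and -0.27 ± 0.10, and PTTG1 (securin) 0.21 ± 0.09, -0.02 ± 0.09 and -0.20 ± 0.09 in WT, SCR and KD (SE).

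Of the 9 centromere and spindle genes, TPX2 fell in all 3 conditions and TACC3 and KIF2C in WT. TPX2 (ENSG00000088325, chromosome 20, 30327074 to 30389608), which activates AURKA on spindle microtubules, stood at 95.9, 105 and 112 CPM for WT, 88.9, 107 and 114 for SCR and 70.7, 107 and 101 for KD without LPS. In LPS libraries, TPX2 stood at 77.2, 70.4 and 79.1 CPM for WT, 76.9, 70.3 and 82.8 for SCR and 68.7, 70 and 65.8 for KD. KD replicate 1, at 70.7 CPM, was low among the unstimulated libraries and only just above the KD libraries with LPS. TPX2 gave -0.47 ± 0.13 (SE, adjusted p = 0.0172) in WT, -0.43 ± 0.13 (SE, adjusted p = 0.027) in SCR and -0.44 ± 0.13 (SE, adjusted p = 0.0301) in KD. These calls were less firm than those of PLK1: the WT call was lost without WT replicate 3, 4 or 5 (adjusted p up to 0.0901), the SCR call without SCR replicate 2, 3, 4 or 5 (adjusted p up to 0.12), and the KD call without KD replicate 2, 3, 4, 5 or 6 (adjusted p up to 0.145) and in the KD groups fitted alone.

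TACC3 (ENSG00000013810, chromosome 4, 1714585 to 1746898), which stabilises spindle microtubules, stood at 228, 229 and 246 CPM for WT, 152, 205 and 170 for SCR and 133, 160 and 136 for KD without LPS. In LPS libraries, TACC3 stood at 171, 158 and 174 CPM for WT, 166, 142 and 154 for SCR and 118, 117 and 123 for KD. The WT and KD libraries lay apart by state, and those of SCR overlapped. In WT it fell (-0.48 ± 0.10, adjusted p = 0.00273), and the call held without any one library. SCR gave -0.19 ± 0.10 and KD -0.27 ± 0.10 (SE), from lower unstimulated levels. KIF2C (ENSG00000142945, chromosome 1, 45205490 to 45233439), a kinesin that disassembles microtubules at kinetochores, stood at 56.9, 52.2 and 53.9 CPM for WT, 63.3, 62.5 and 71.7 for SCR and 64.5, 55.9 and 53.5 for KD without LPS. In LPS libraries, KIF2C stood at 44.9, 39 and 36.5 CPM for WT, 60, 63.4 and 50.8 for SCR and 52.5, 59.2 and 52.3 for KD. Only in WT were all 3 libraries with LPS lower than all 3 without. KIF2C fell in WT (-0.44 ± 0.11, adjusted p = 0.0119), a call lost without WT replicate 6 (adjusted p up to 0.0674), and gave -0.18 ± 0.11 in SCR and -0.08 ± 0.11 in KD (SE). CENPA, CENPE, CENPF, KIF11, NUSAP1 and HMMR passed in no condition, with log2 fold changes from -0.60 (CENPA in WT) to 0.60 (KIF11 in KD).

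In the cytokinesis group, 1 of 6 genes was called lower in WT and 1 higher in SCR, and the rest passed in none. PRC1 (ENSG00000198901, chromosome 15, 91509270 to 91538859), which bundles the central spindle, stood at 81.7, 78.8 and 73.6 CPM for WT, 70.7, 77.4 and 73.9 for SCR and 78, 74.2 and 65 for KD without LPS. In LPS libraries, PRC1 stood at 65.5, 57 and 55.3 CPM for WT, 77.8, 74.6 and 72.6 for SCR and 66.3, 74.9 and 62.6 for KD. The 3 WT libraries lay apart by state and those of SCR overlapped. PRC1 fell in WT (-0.40 ± 0.10, adjusted p = 0.0107), a call lost without WT replicate 5 or 6 (adjusted p up to 0.0584), with 0.02 ± 0.10 in SCR and -0.09 ± 0.10 in KD (SE). KIF20B (ENSG00000138182, chromosome 10, 91461347 to 91534696), a kinesin of the midbody, stood at 92.4, 65.7 and 76.7 CPM for WT, 63.8, 63.7 and 72 for SCR and 71.8, 82.2 and 60.2 for KD without LPS. In LPS libraries, KIF20B stood at 74.1, 73.2 and 64.2 CPM for WT, 97.3, 80.8 and 84.6 for SCR and 68.9, 74 and 79.3 for KD. It was the only one of the 40 genes called higher with LPS in any condition (0.40 ± 0.13, adjusted p = 0.0388 in SCR), with -0.15 ± 0.13 in WT and 0.05 ± 0.13 in KD (SE). The call was lost without SCR replicate 1, 2, 4 or 6 (adjusted p up to 0.176), with library totals alone, with upper-quartile factors and with GC correction. ANLN, ECT2, KIF20A and KIF23 gave values from -0.51 ± 0.27 (KIF20A in WT) to 0.52 ± 0.22 (ANLN in KD, SE).

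None of the 4 chromosome and transcription genes was called with LPS. MKI67, which coats mitotic chromosomes and is the usual proliferation marker, gave -0.02 ± 0.10, 0.22 ± 0.10 and -0.07 ± 0.10 in WT, SCR and KD (log2 fold change and SE), and FOXM1, a transcription factor of G2/M genes, gave -0.19 ± 0.14, -0.36 ± 0.14 and 0.02 ± 0.14. TOP2A gave -0.31 ± 0.11, 0.12 ± 0.11 and -0.22 ± 0.11, and HMGB2, a chromatin protein, -0.58 ± 0.23, 0.04 ± 0.22 and 0.16 ± 0.22.

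The count of calls depended on single libraries. In WT it was 9 without replicate 3, 5 or 6 and 17 without replicate 2. In SCR it was 5 without replicate 1 or 4, and in KD it was 2 without replicate 3, 3 without replicate 5, 4 without replicate 6 and 10 without replicate 1. In the KD groups fitted alone it was 2. The split of higher and lower calls in SCR, 1 and 7, was 2 and 6 with RLE factors, 0 and 7 with upper-quartile factors, 0 and 11 with library totals alone, and 0 and 10 with GC correction. In SCR and KD the LPS fold changes of all genes leaned on GC content (Spearman -0.20 in both, -0.01 in WT, over 16235 genes), and the 40 genes had a median GC content of 43.9% against 47.3% of all genes tested. With a correction for GC content the counts were 14 lower in WT, 10 in SCR and 10 in KD.

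Whether the LPS response of these genes differed between conditions was tested directly for SCR against WT and for KD against SCR. Of the 40 genes, 0 passed for SCR against WT, where 0.234% of all genes passed, and 0 for KD against SCR, where 0% did. At an unadjusted p under 0.05, 9 of the 40 had a higher log2 fold change with LPS in SCR than in WT and 0 a lower one, against 4.53% and 5.43% of all genes. The LPS response was less negative or more positive in SCR than in WT for 33 of 40 genes and 50.9% of all genes, with a median difference of 0.17, beside 0.01 over all genes. For KD against SCR the median difference was -0.02, beside 0.03 over all genes, and 4 genes had an unadjusted p under 0.05, all lower in KD, against 3.45% of all genes. DESeq2 made 0 calls among the 40 genes in both tests. A gene called lower in WT alone is thus not shown to respond differently in SCR. The LPS response in KD was not tested against that in WT.

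The next comparisons set the conditions side by side without LPS. SCR and KD are compared with the same WT libraries, so their differences from WT are not independent. Without LPS 2 of the 40 genes were called in SCR against WT, both lower (1.45% of all genes were called lower), and 2 in KD against WT, both lower (5.85% of all genes). They were TACC3 and TOP2A in both. KD also lay apart from WT without LPS in its mitochondrial share and its summed monocytic markers, and SCR in the latter, and the part of these shifts was not tested. The TACC3 values above show all 3 WT libraries, from 228 to 246 CPM, higher than every SCR library, from 152 to 205 CPM, and every KD library, from 133 to 160 CPM. The log2 difference was -0.42 ± 0.10 (SE, adjusted p = 0.0304) for SCR and -0.71 ± 0.10 (SE, adjusted p = 0.000188) for KD. The KD call held without any one library, while the SCR call was lost without SCR replicate 1 or 3 or WT replicate 1 or 3 (adjusted p up to 0.177) and in the groups fitted alone.

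TOP2A (ENSG00000131747, chromosome 17, 38544777 to 38574148) stood at 777, 694 and 904 CPM for WT, 547, 614 and 629 for SCR and 557, 683 and 524 for KD without LPS. Every WT library was higher than every SCR and KD library. The log2 difference from WT was -0.41 ± 0.11 (SE, adjusted p = 0.0369) for SCR and -0.43 ± 0.11 (SE, adjusted p = 0.0113) for KD. The SCR call was lost without SCR replicate 1, 2 or 3 or WT replicate 1 or 3 (adjusted p up to 0.201), with upper-quartile factors, with GC correction and in the groups fitted alone, and the KD call without KD replicate 3 or WT replicate 3 (adjusted p up to 0.0915) and in the groups fitted alone. The median log2 difference of the 40 genes was -0.01 for SCR and -0.04 for KD, beside 0.01 and -0.01 over all genes. With upper-quartile factors or GC correction the KD comparison had 1 gene, CCNA2, called higher beside the 2 lower. With no filter on low counts the gene called higher was HMGB2 (0.37 ± 0.11, adjusted p = 0.0235 by edgeR). A replicate block, alone or with GC correction, and DESeq2 also gave 1 gene called higher. The SCR count was 0 without WT replicate 1 or 3 or SCR replicate 1 or 3 and 1 without SCR replicate 2, and the KD count was 1 without WT replicate 3 and 3 without KD replicate 2.

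**Figure D3:**
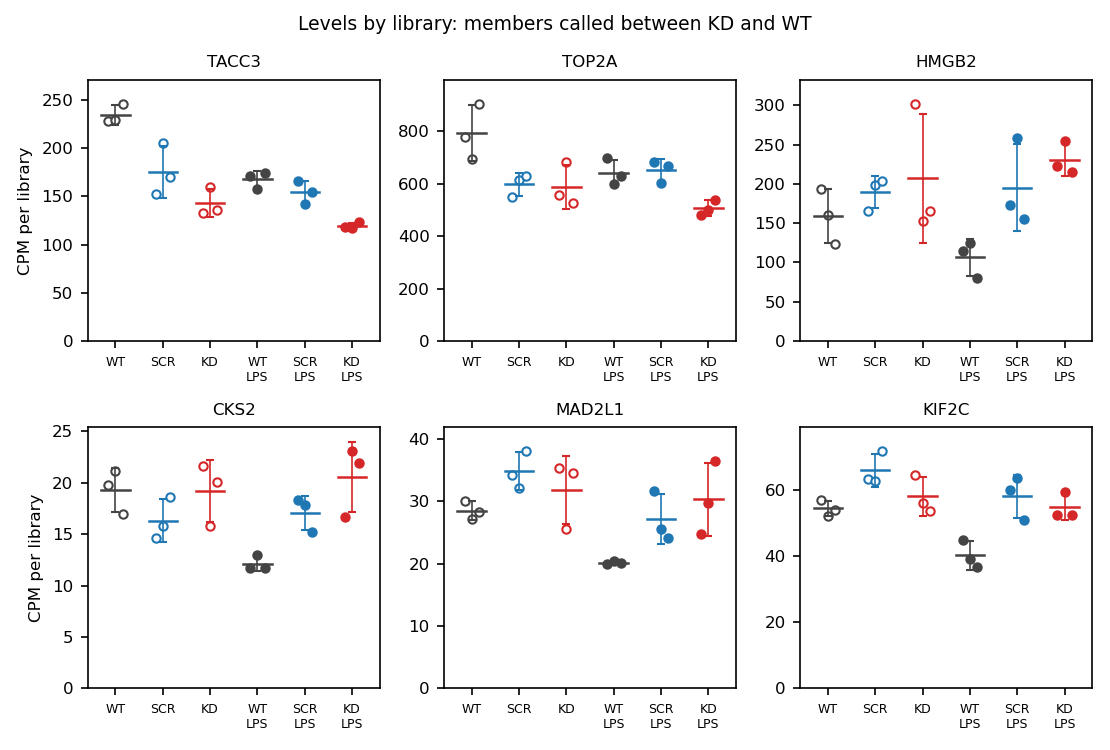
Levels by library of 6 genes called between KD and WT. Points are single libraries (open without LPS, filled with LPS), the y axis gives CPM from 0, and lines and bars are the mean and SD of 3 libraries. TACC3 is highest in WT without LPS (228 to 246 CPM), and the group means of HMGB2, CKS2, MAD2L1 and KIF2C are lowest in WT with LPS.

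With LPS, KD had 6 of the 40 genes called higher than WT (6.29% of all genes were) and 2 called lower (4.55% of all genes). The 6 were HMGB2, CKS2, MAD2L1, KIF2C, CCNB1 and ANLN. Of these, CKS2, MAD2L1, KIF2C and CCNB1 were also called lower with LPS in WT. The LPS response in WT, its comparison with that in SCR and both differences from WT with LPS use the same WT libraries with LPS. Their results are thus not independent. HMGB2 (ENSG00000164104, chromosome 4, 174252527 to 174255583), a DNA-bending protein abundant in dividing cells, stood at 193, 160 and 124 CPM for WT, 166, 199 and 204 for SCR and 302, 153 and 166 for KD without LPS. With LPS it stood at 114, 125 and 80.3 CPM for WT, 173, 258 and 155 for SCR and 223, 255 and 215 for KD, so that every KD and SCR library was higher than every WT library, and KD replicate 1 without LPS was the highest of all 18. The log2 difference with LPS was 1.12 ± 0.23 (SE, adjusted p = 0.00537) for KD against WT, and SCR against WT gave 0.87 ± 0.23 (SE, adjusted p = 0.125). CKS2 was also higher in KD (0.76 ± 0.16, adjusted p = 0.00704), with 0.49 ± 0.16 (SE, adjusted p = 0.221) for SCR. Both KD calls held without any one library.

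MAD2L1 was higher in KD than in WT with LPS (0.59 ± 0.15, adjusted p = 0.0177), beside 0.42 ± 0.15 for SCR, and the call was lost without KD replicate 5 or 6 or WT replicate 4 or 6 (adjusted p up to 0.0961). KIF2C gave 0.45 ± 0.12 (SE, adjusted p = 0.0177) for KD and 0.53 ± 0.12 (SE, adjusted p = 0.0725) for SCR, and the KD call was lost without KD replicate 5 or WT replicate 5 or 6 (adjusted p up to 0.11). CCNB1 gave 0.54 ± 0.16 (SE, adjusted p = 0.0354) for KD and 0.32 ± 0.16 (SE) for SCR, and the KD call was lost without KD replicate 4, 5 or 6 or WT replicate 4 or 6 (adjusted p up to 0.195). ANLN (ENSG00000011426, chromosome 7, 36429430 to 36493400), the anillin of the contractile ring, stood at 29.2, 21.2 and 22.5 CPM for WT, 17.5, 20.1 and 29 for SCR and 28.9, 16.4 and 23.5 for KD without LPS. In LPS libraries, ANLN stood at 22.9, 21.5 and 15.3 CPM for WT, 30.5, 36.5 and 23.5 for SCR and 30.7, 38.2 and 30.2 for KD. KD was higher than WT (0.73 ± 0.22, adjusted p = 0.0379), a call lost without any one of the 6 libraries (adjusted p 0.0514 to 0.201), and SCR gave 0.60 ± 0.22 (SE).

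The 2 genes called lower in KD than in WT with LPS were those of the unstimulated comparison. TACC3 gave -0.50 ± 0.10 (SE, adjusted p = 0.00673) for KD and -0.12 ± 0.10 for SCR (SE), and the KD call held without any one library. TOP2A stood at 696, 598 and 627 CPM for WT, 682, 601 and 668 for SCR and 481, 498 and 539 for KD with LPS, and the KD libraries were lower than all WT and SCR libraries. Its log2 difference from WT was -0.34 ± 0.11 (SE, adjusted p = 0.0443) for KD, a call lost without any one of the 6 libraries (adjusted p 0.0520 to 0.165), and 0.02 ± 0.11 for SCR (SE). The count of 8 calls was 3 without WT replicate 6 or KD replicate 5, 4 without WT replicate 4 or KD replicate 6, and 5 without KD replicate 4.

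SCR against WT with LPS gave 0 calls among the 40 genes by edgeR, where 0.114% of all genes were called, and 12 of the 40 genes at an unadjusted p under 0.05, all higher in SCR, where 6.73% of all genes were higher at that threshold. DESeq2 called 1, KIF2C. The log2 difference was above 0 for 34 of 40 genes and 51.2% of all genes, with a median of 0.21 beside 0.01 over all genes (0.14 and -0.01 with GC correction). In the lists described below it was above 0 for 82.8% of S phase genes, 69.3% of other mitotic genes and 66.7% of cycle inhibitors. The medians of these lists were 0.16, 0.16 and 0.17, so the shift was not particular to the 40 genes. The log2 differences of all genes had a Spearman correlation of -0.21 with GC content here, and its part in the result was not tested beyond that correction. In this pair of groups libraries of the same replicate number had correlated deviations (0.26, 0.16 and 0.25). Between KD and either of them with LPS these correlations ran from -0.09 to 0.09. The replicate block was shared by WT, SCR and KD, so it does not pair WT with SCR alone. With the replicate number as a block 2 genes were called higher, HMGB2 (0.86 ± 0.17, adjusted p = 0.0234) and KIF2C (0.53 ± 0.11, adjusted p = 0.0270), while 0.809% of all genes were called.

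**Figure D4:**
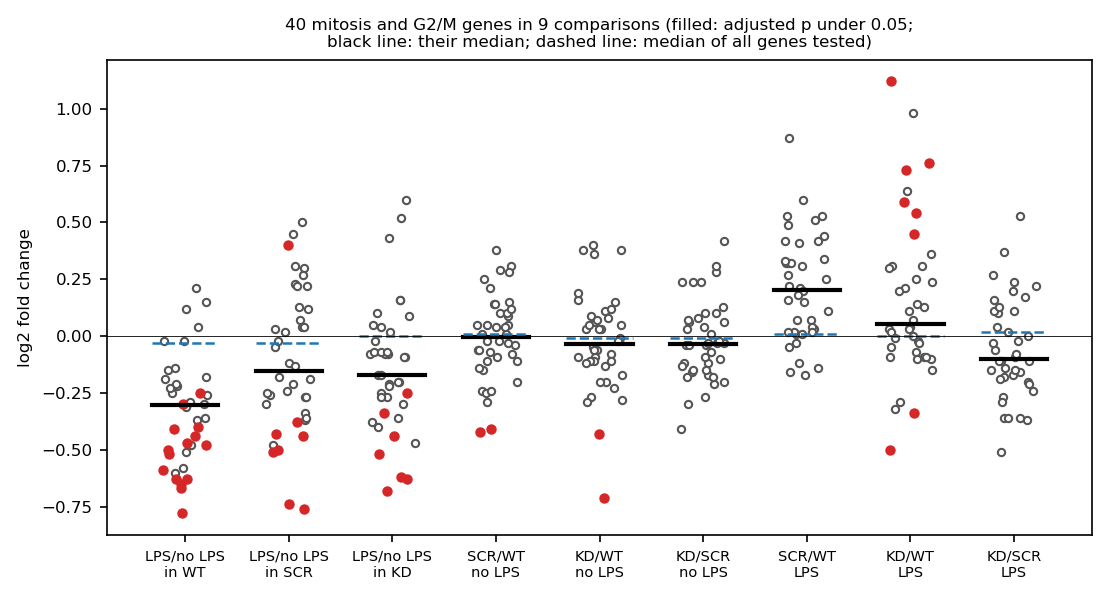
Log2 fold changes of the 40 genes in the 9 pairwise comparisons. Each point is 1 gene (filled where the adjusted p was under 0.05), the black line is the median of the 40 genes and the dashed line that of all genes tested. The medians lie at -0.31, -0.16 and -0.17 in the 3 LPS comparisons and at 0.21 for SCR against WT with LPS, and KD against SCR has 0 filled points in both states.

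The comparison that isolates the TRAFD1 siRNA from transfection with an siRNA is KD against SCR. By edgeR 0 of the 40 genes were called without LPS, where 0.066% of all genes were called, and 0 with LPS, where 0% were. Without LPS the log2 differences ran from -0.41 (FOXM1) to 0.42 (NEK2), with a median of -0.03 beside -0.01 over all genes, and at an unadjusted p under 0.05 there were 2 higher genes and 2 lower genes, against 5.74% and 6.9% of all genes. With LPS they ran from -0.51 (HMMR) to 0.53 (CENPA), with a median of -0.10 beside 0.02 over all genes. There 7 genes were lower and 0 higher at an unadjusted p under 0.05: TACC3 (-0.37 ± 0.10), MKI67 (-0.36 ± 0.10), TOP2A (-0.36 ± 0.11), HMMR (-0.51 ± 0.16), AURKB (-0.36 ± 0.13), CENPF (-0.29 ± 0.11) and CKS1B (-0.16 ± 0.08; SE), with adjusted p-values from 0.201 to 0.414, and 5.95% of all genes were lower at that threshold. DESeq2 called 0 without LPS and 2 with LPS, TACC3 and MKI67, both at an adjusted p of 0.0446. These values do not show that KD and SCR were alike, and with LPS the TRAFD1 difference itself did not pass.

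Other genes of mitosis, which are not among the 40, were read from the same fit. Of 115 listed, 114 were tested. With LPS 10 were lower and 3 higher in WT, 7 lower and 6 higher in SCR, and 11 lower and 3 higher in KD. The lower ones were 8.77%, 6.14% and 9.65% of those tested, against 7.26%, 8.56% and 5.05% of all genes. The higher ones were 2.63%, 5.26% and 2.63%, against 7.01%, 8.64% and 6.41%. The medians were -0.10, -0.04 and -0.02, against -0.03, -0.03 and 0.00. RAD21, the cohesin subunit cleaved at anaphase, fell in WT (-0.74 ± 0.07, adjusted p = 9.19e-08), SCR (-0.53 ± 0.07, adjusted p = 1.28e-05) and KD (-0.66 ± 0.07, adjusted p = 7.69e-07). NSL1, a subunit of the MIS12 kinetochore complex, also fell in WT (-0.50 ± 0.09, adjusted p = 0.000799), SCR (-0.37 ± 0.09, adjusted p = 0.00877) and KD (-0.38 ± 0.09, adjusted p = 0.0104). KD against WT had 8 higher and 4 lower without LPS and 12 higher and 2 lower with LPS. The higher ones were 7.02% and 10.5% of those tested, against 5.85% and 6.29% of all genes. The lower ones were 3.51% and 1.75%, against 5.85% and 4.55% of all genes. Without LPS RHOA, a GTPase of the contractile ring, was lower in KD than in WT (-0.38 ± 0.07, adjusted p = 0.00119). TUBB, a tubulin, was higher (0.49 ± 0.10, adjusted p = 0.00214).

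Of 30 S phase genes 29 were tested. Without LPS 4 were higher in SCR than in WT and 6 in KD than in WT, with 0 lower. The higher ones were 13.8% and 20.7% of those tested, against 1.78% and 5.85% of all genes, and the medians were 0.21 and 0.26, against 0.01 and -0.01. RRM2, a subunit of ribonucleotide reductase, gave 0.67 ± 0.13 for SCR (adjusted p = 0.00729) and 0.70 ± 0.13 for KD (adjusted p = 0.00174), from the same WT libraries. RFC4, a subunit of the clamp loader, gave 0.49 ± 0.11 for SCR (adjusted p = 0.0188) and 0.54 ± 0.11 for KD (adjusted p = 0.00343). With LPS 2 rose and 0 fell in WT, 3 rose and 2 fell in SCR, and 2 rose and 3 fell in KD. The genes that rose were 6.9%, 10.3% and 6.9% of those tested, against 7.01%, 8.64% and 6.41% of all genes. Those that fell were 0%, 6.9% and 10.3%, against 7.26%, 8.56% and 5.05%. The S phase list held 0 genes called lower with LPS in WT, where 15 of the 40 mitotic genes were. This difference between lists was not tested, and the lists were chosen with earlier results of these data known.

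Of 22 listed inhibitors of the cycle, mainly CDK inhibitors and p53 targets, 18 were tested. With LPS 8 fell and 4 rose in WT, 4 fell and 5 rose in SCR, and 4 fell and 4 rose in KD. The genes that fell were 44.4%, 22.2% and 22.2% of those tested, against 7.26%, 8.56% and 5.05% of all genes, and those that rose 22.2%, 27.8% and 22.2%, against 7.01%, 8.64% and 6.41%. SESN2, a stress-induced sestrin, fell in WT (-1.99 ± 0.14, adjusted p = 9.91e-10), SCR (-2.19 ± 0.14, adjusted p = 4.53e-10) and KD (-2.36 ± 0.14, adjusted p = 2.14e-10). CDKN2D, an inhibitor of CDK4 and CDK6, fell in WT (-1.26 ± 0.14, adjusted p = 1.06e-06) and SCR (-0.89 ± 0.14, adjusted p = 0.000114), and gave -0.40 ± 0.14 in KD (adjusted p = 0.0642). BTG2, an antiproliferative p53 target, rose in WT (1.95 ± 0.19, adjusted p = 1.69e-07), SCR (1.39 ± 0.19, adjusted p = 1.93e-05) and KD (1.66 ± 0.19, adjusted p = 2.54e-06). PLK2, a stress-induced relative of PLK1, also rose in WT (0.78 ± 0.23, adjusted p = 0.0260), SCR (1.11 ± 0.23, adjusted p = 0.00218) and KD (2.16 ± 0.25, adjusted p = 3.47e-06).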

How the data were processed

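RNA of 18 THP-1 libraries was prepared with a QuantSeq 3-prime kit, which yields one fragment per transcript. The authors removed low-quality, adaptor and poly-A sequence, aligned reads to GRCh37 with HISAT, and counted them with featureCounts over a stretch at the end of each gene. The deposited table holds raw read counts per Ensembl gene. All 18 columns were used. Symbols and coordinates came from GENCODE v44lift37 on GRCh37.

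Genes with low counts were removed (filterByExpr by group), which left 16678. All 18 libraries entered a single edgeR 4.0.16 model (R 4.3.3) with a mean for every group, TMM scaling and the quasi-likelihood F test. Benjamini-Hochberg adjustment ran over all genes tested, with a threshold of 0.05. The 11 comparisons were 9 pairwise ones and 2 interactions. Standard errors (SE) were obtained as log2 fold change over the root of F. An exact permutation test of 3 against 3 libraries cannot go below p = 0.1. The script was tested on simulated data. Alternatives were other scalings, no filter, a GC correction, a replicate block, the 2 groups alone, DESeq2 1.42.0 and leaving out each library.

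Replicate numbers are shared only between conditions of the same stimulation state, and were taken to pair libraries where all 3 same-number correlations of deviations from group means exceeded 0.1, which held only for WT and SCR with LPS (0.26, 0.16 and 0.25). No 2 libraries of a group agreed within sampling noise.

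The 40 genes and the other lists were chosen with earlier results of these data known. Values are given for every gene past the threshold in a pairwise comparison, the 2 most and the 2 least abundant genes, and up to 4 genes per other list by adjusted p. One gene that this rule would name is not reported here.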

Additional observations from a re-analysis of the deposited data

Results flagged for a closer look

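CENPF, a large kinetochore protein made in G2, was singled out because all 3 libraries with LPS lay below all 3 without in WT and above them in SCR. It stood at 156, 131 and 152 CPM without LPS and 128, 117 and 122 CPM with LPS in WT and at 134, 144 and 144 CPM without LPS and 152, 145 and 165 CPM with LPS in SCR. The log2 fold change was -0.26 ± 0.11 in WT and 0.13 ± 0.11 in SCR (SE), and their difference was 0.39 ± 0.15 (SE, adjusted p = 0.445 by edgeR), which did not pass. KD gave -0.20 ± 0.11.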

How the results depend on the processing

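No called gene changed direction under any alternative. The number of the 40 genes called with LPS in KD was 7, but 11 with library totals alone, 11 with a replicate block, 14 with the block and GC correction, and 2 in the groups fitted alone. For SCR against WT without LPS it was 2, but 1 with upper-quartile factors, 1 with GC correction and 0 in the groups fitted alone. For KD against WT without LPS it was 2, but 4 with the block, 4 with DESeq2 and 1 in the groups fitted alone. For SCR against WT with LPS it was 0, but 3 without the filter on low counts, 2 with the block, 2 with the block and GC correction, and 1 with DESeq2. KD against SCR with LPS had 0, but 1 without the filter, 1 in the groups fitted alone and 2 with DESeq2, and the interaction of SCR against WT had 0, but 1 without the filter. The cause was not tested. Leaving out each library in turn gave 9 to 17 calls with LPS in WT, 5 to 7 in SCR, 2 to 10 in KD, 0 to 2 for SCR against WT and 1 to 3 for KD against WT without LPS, and 3 to 6 for KD against WT with LPS. Between conditions of the same stimulation state, other than WT and SCR with LPS, same-number correlations ran from -0.09 to 0.30 and the libraries shared only a number; for KD against WT with LPS the replicate block gave 11 calls. The LPS comparisons within a condition share no replicate numbers, so they have no pairing, and the same fit, with a block within each stimulation state across conditions, gave 18 calls in WT and 10 in SCR. Depth limits the least abundant genes, whose lowest counts were 51 to 88 in a library.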
